A study of Homo sapiens with 12 samples.

Results

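H1703, a lung cancer cell line, was compared with 3 other lung cancer cell lines, H1299, CHAGO and CALU, that were profiled with it by RNA-seq. The H1703 side held 3 libraries of the 12 in the series: PRKCI knockdown TICs, TICs (tumor-initiating cells) and adherent parental cells, with 1 library of each state. The other side held the same 3 states of each of the other lines, 9 libraries in all. Genes were taken to set H1703 apart where they were called at an adjusted p of 0.05 with state as a block and H1703 lay above, or below, each of the 3 other lines within each state. Of 14882 genes tested, 722 met this rule, 300 higher and 422 lower in H1703. The series as a whole asks how TICs depend on PRKCI, the gene of the atypical protein kinase C iota. The labels do not state how TICs were grown, how PRKCI was knocked down or which of the lines with a name in CALU was used. All lines are called lung squamous cell carcinoma in the title of the series, and each is 1 line, so H1703 stands for itself only.

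A cell line keeps the expression programme of its tumor of origin together with what culture and its own DNA changes have added. H1703 is known for amplification of PDGFRA, which encodes a receptor tyrosine kinase that binds platelet-derived growth factors at the cell surface and passes their signal to growth pathways. Epithelial cells are recognised by keratins, by E-cadherin and by tight junction proteins, and squamous cells by TP63 and the basal keratins. SMARCA2 and SMARCA4 are the alternative ATPases of the SWI/SNF chromatin remodelling complexes, and the GLI proteins are the transcription factors at the end of the Hedgehog pathway.

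The H1703 libraries held 22408673 to 26466365 reads in genes, against 21165030 to 36060810 in H1299, 63759326 to 83284773 in CHAGO and 80415105 to 91763055 in CALU, so depth differed with the line. Levels are given as CPM (the reads of a gene scaled to the size of its library, after TMM factors), with the 3 values of a line always in the order parental cells, TICs, knockdown TICs. Across genes, log2 CPM of the H1703 libraries correlated at 0.939 to 0.946 with each other, against 0.832 to 0.875 with H1299, 0.799 to 0.818 with CHAGO and 0.773 to 0.813 with CALU. The other lines were alike in this, at 0.919 to 0.968 within a line and 0.773 to 0.856 between them. PRKCI itself had 301, 340 and 58.0 CPM in H1703, the low value being in the knockdown library, and it did not differ between H1703 and the other lines by edgeR (log2 fold change 0.33 ± 0.37 SE, adjusted p = 0.614).

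By edgeR's quasi-likelihood test with Benjamini-Hochberg adjustment, 723 genes (4.86% of those tested) were called, 301 higher (2.02%) and 422 lower (2.84%) in H1703. The 722 of them that set H1703 apart in each state made up 4.85% of tested genes, 2.02% higher and 2.84% lower. The median log2 fold change was 1.82 for those set apart higher, and for those set apart lower it was −4.60 with genes at 0 reads taken at their bound. Over all tested genes the median was −0.33. Of the genes set apart, 281 of the higher and 404 of the lower ones lay beyond all 9 other libraries. Lying beyond each other line within every state was already part of the rule, so these counts are no separate support. The same holds for each statement below that the groups did not overlap for a gene set apart. Called or not, 1339 tested genes lay above and 1381 below the other lines in all 3 states. The fall was a loss to 0 reads in every H1703 library for 107 of the 422 lower genes, while 3 of the 300 higher genes had 0 reads in all 9 other libraries. With the authors' mode normalization the median over all tested genes moved by 0.41, to 0.07 on the log2 scale and the calls were 689 higher and 542 lower. Of 275 named genes 7 then had the opposite sign, and 0 of these 7 were called without that scaling.

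The test treats the 3 libraries of a line as independent, although they are states of 1 line, so its p-values measure the spread among these libraries and not among lung cancer lines. With the correlation among libraries of a line estimated from the data (limma voom, 0.588), 13 genes were called higher and 0 lower, and 896 genes had an unadjusted p under 0.05. Among the 13 were PDGFRA (adjusted p = 0.0239 by limma), PDGFC (0.0485), SIX3 (0.0192), EMX2 (0.0079), DLGAP1 (0.0398), COL5A2 (0.0485), SOCS7 (0.0485) and DDAH2 (0.0485). EMX2, SIX3 and DLGAP1 passed the filter on low counts through H1703 alone, so that a test could find them only higher. The gene lists below are described by their counts, and adjusted p-values with that correlation are given for many, not all, of the named genes. Leaving out the H1703 parental library left 56 genes called higher and 98 lower, leaving out its TICs 27 and 74, and leaving out its knockdown TICs 19 and 47. SOCS7 and DDAH2 were picked for mention after their values were seen.

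**Figure D1:**
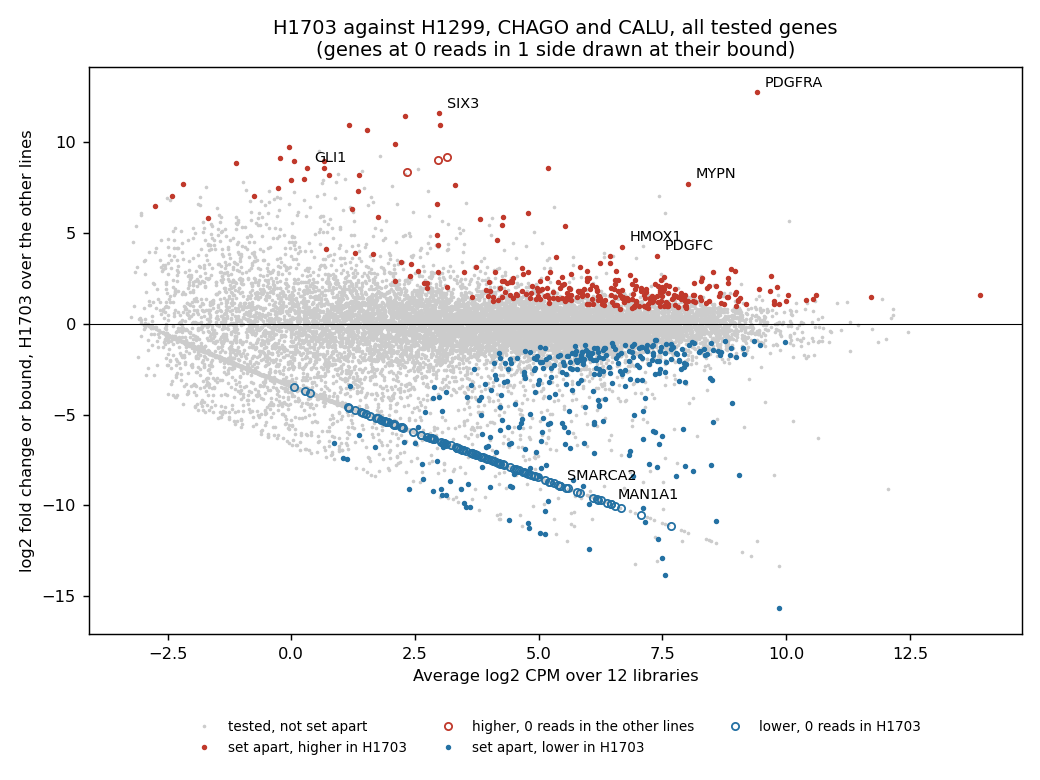
Each point is 1 of the 14882 tested genes, with the average log2 CPM over 12 libraries on the x axis and the log2 fold change of H1703 over the other lines on the y axis. Red points are set apart higher and blue points lower in H1703, and open circles are genes with 0 reads on 1 side, drawn at the bound that 3 reads per library allow. PDGFRA stands far above all genes of similar abundance, and the open blue circles form a line of 107 genes with 0 reads in H1703.

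Each other line was also set against H1703 in 1 fit with a term for each line. Against H1299, 894 genes were higher (6.01% of those tested) and 1422 lower (9.56%) in H1703. Against CHAGO the counts were 1636 higher (11.0%) and 2202 lower (14.8%), and against CALU 1686 higher (11.3%) and 2293 lower (15.4%). The contrasts share the H1703 libraries, so they are not independent of each other. In all 3 contrasts 300 genes passed as higher (2.02%) and 569 as lower (3.82%), and of the genes set apart 240 higher and 417 lower ones passed against every line.

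PDGFRA was among the 15 largest rises and was abundant in every H1703 library. It had 2596, 3060 and 2549 CPM in H1703, against a lowest value of 0, a median of 0 and a highest of 4.13 CPM in the 9 other libraries. The groups were far apart in every state, and the highest of the other values was in CALU knockdown TICs. The log2 fold change was 12.76 ± 2.05 (SE; edgeR adjusted p = 0.009), and PDGFRA passed against each line. PDGFC, a ligand of this receptor, had 525, 610 and 508 CPM in H1703, against a lowest of 6.94, a median of 36.1 and a highest of 79.2 CPM in the other libraries. All 3 H1703 values again exceeded all others (log2 fold change 3.76 ± 0.57 SE, edgeR adjusted p = 0.00764). PDGFRB, the related receptor, had 0 reads in each H1703 library, against 0 to 0.441 CPM in H1299, 0 in CHAGO and 2.76 to 9.37 CPM in CALU, and it was not called (edgeR adjusted p = 0.278). PDGFB, another ligand, had 8.83, 4.88 and 9.67 CPM in H1703, against 0 to 3.86 CPM in the others, without a call (edgeR adjusted p = 0.252).

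**Figure D2:**
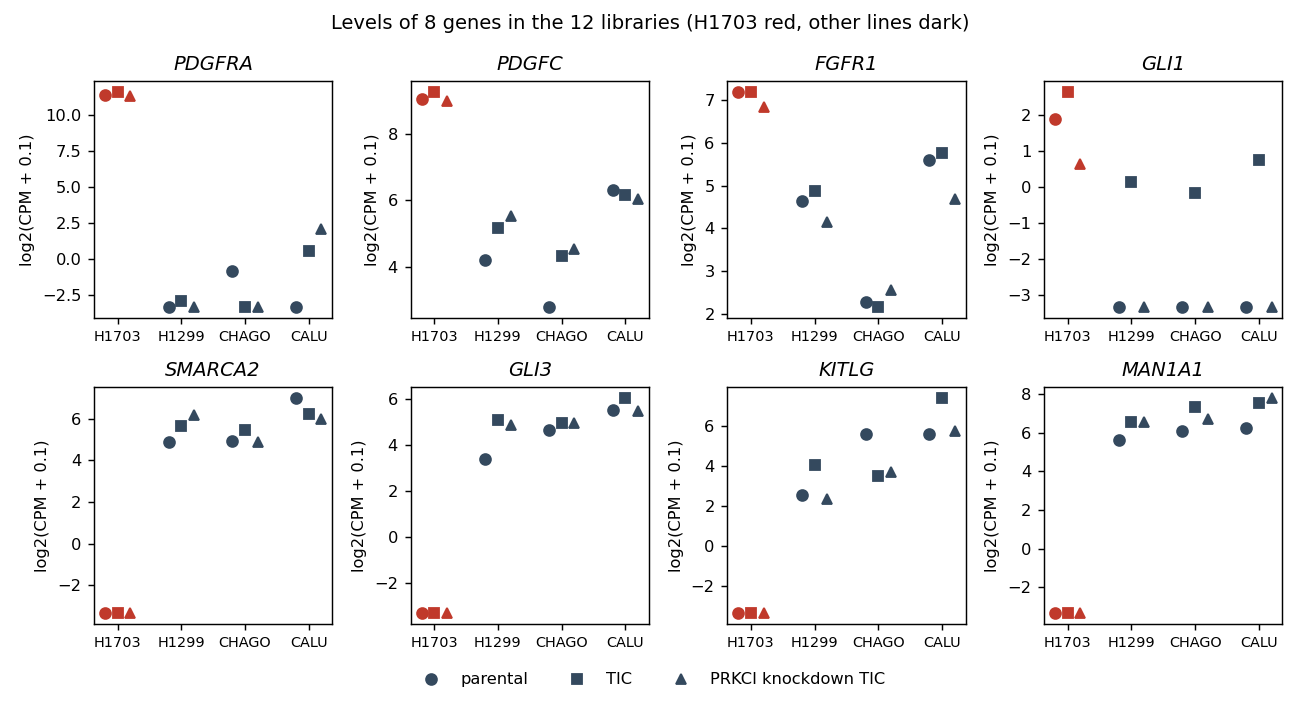
Levels of 8 genes as log2(CPM + 0.1) in each library, with the lines on the x axis, H1703 first in red, and the state given by the marker. PDGFRA, PDGFC and FGFR1 lie above all other libraries in H1703, while SMARCA2, GLI3, KITLG and MAN1A1 sit at 0 reads in all 3 H1703 libraries, and GLI1 in H1703 knockdown TICs lies level with CALU TICs.

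The receptor tyrosine kinases as a list had 2 of 44 tested members called higher, PDGFRA and FLT4, and 0 lower by edgeR, 4.55% of the list against 4.86% of all tested genes. At an unadjusted p under 0.05 edgeR gave 7 higher and 11 lower members. DESeq2 called 5 higher and 13 lower, and limma voom 5 higher and 0 lower. The median log2 fold change was −1.74 with bounds, against −0.33 over all tested genes. FLT4, the receptor of lymphatic growth factors, was scarce, with 0.651, 1.43 and 4.28 CPM in H1703, against 0 to 0.195 CPM in the others (log2 fold change 7.07 ± 1.76 SE, edgeR adjusted p = 0.0476). FLT4 passed the filter on low counts through H1703 alone, so a test could find it only higher. KDR, a receptor of vascular endothelial growth factor and a neighbour of PDGFRA, had 0 reads in H1703, against 0 to 26.3 CPM in the others, and was not called (edgeR adjusted p = 0.239). KIT, the stem cell factor receptor, was too low to be tested, with 0 reads in each H1703 library, against 4 in H1299 TICs, 372 in CHAGO parental cells and 37 in CALU parental cells.

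Among the 38 tested ligands of these receptors, PDGFC was called higher and KITLG, EFNB2 and BDNF lower, 10.5% of the list against 4.86% of all tested genes. KITLG, the ligand of KIT, had 0 reads in all H1703 libraries, against a lowest of 4.94, a median of 16.3 and a highest of 166 CPM in the others. That is at least 339.6-fold lower, taking 3 reads per H1703 library as the floor (edgeR adjusted p = 0.0184). EFNB2, the membrane ligand ephrin-B2, was also at 0 reads in H1703, against 3.66 to 161 CPM in the others, at least 419-fold lower (edgeR adjusted p = 0.0213). BDNF, a neurotrophin, had 0.651, 0.134 and 0.193 CPM in H1703, against 3.39 to 91.6 CPM in the others (log2 fold change −6.57 ± 1.32 SE, edgeR adjusted p = 0.0216). The groups did not overlap for any of these 3 ligands. With the correlation within lines estimated, limma's adjusted p was 0.887 for KITLG, 0.809 for EFNB2 and 0.985 for BDNF, against 0.748 for FLT4.

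FGFR1, a fibroblast growth factor receptor, had 144, 146 and 114 CPM in H1703, against a lowest of 4.39, a median of 24.6 and a highest of 54.2 CPM in the others. All H1703 values exceeded all others, and FGFR1 passed against each line, but it missed the threshold over the 3 lines together (log2 fold change 2.54 ± 0.68 SE, edgeR adjusted p = 0.0593). Its neighbours on chromosome 8 were high too: in the 15 tested genes around it, from STAR to C8orf4, 14 had a positive log2 fold change and the median was 1.46. That median stood at percentile 99.7 of all 13977 windows of 15 genes, whose own median was −0.34. In a list of 27 genes around FGFR1, 21 were tested and 3 were called higher, 14.3% of the list against 4.86% of all tested genes. WHSC1L1, a histone methyltransferase gene also named NSD3, had 322, 261 and 358 CPM in H1703, against 53.6 to 142 CPM in the others (log2 fold change 1.91 ± 0.25 SE, edgeR adjusted p = 0.00446). DDHD2, a phospholipase gene, had 342, 238 and 241 CPM in H1703, against 36.5 to 134 CPM in the others (1.93 ± 0.38 SE, edgeR adjusted p = 0.0195). ASH2L, a subunit of histone H3 lysine methyltransferase complexes, was higher by less, with 128, 93.4 and 91.4 CPM in H1703, against 31.7 to 86.5 CPM in the others (1.10 ± 0.28 SE, edgeR adjusted p = 0.049). Limma's adjusted p with an estimated correlation was 0.309 for WHSC1L1, 0.367 for DDHD2 and 0.940 for ASH2L, and 0.315 for FGFR1.

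The surroundings of PDGFRA differed from those of FGFR1. In the 15 tested genes around PDGFRA on chromosome 4, from SNORA26 to CEP135, 4 had a positive log2 fold change, PDGFRA was the 1 gene called, and the median was −0.30, at percentile 51.9 of all windows, and the number above 0 moves with the scaling. FIP1L1, a gene for messenger RNA processing from the list of genes around PDGFRA, had 302, 442 and 260 CPM in H1703, against 48.2 to 196 CPM in the others. All H1703 values exceeded all others, without a call (log2 fold change 1.38 ± 0.37 SE, edgeR adjusted p = 0.0605). Around PDGFC, from DCHS2 to PPID, 6 of 15 were positive with a median of −0.69. DNA copy number was not measured in these files.

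**Figure D3:**
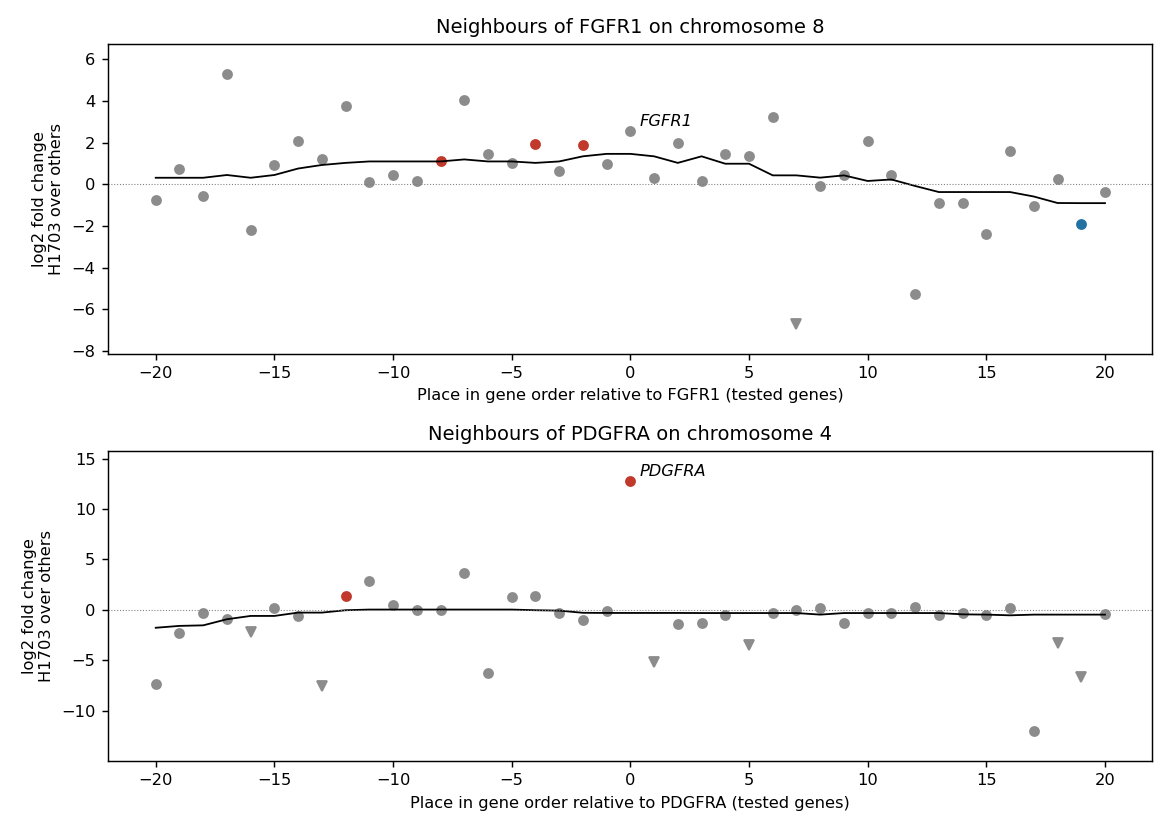
Log2 fold change of H1703 over the other lines (y axis) for the tested genes in their order along the chromosome (x axis), counted from FGFR1 in the upper panel and from PDGFRA in the lower one. Red and blue mark genes called higher and lower, triangles are bounds for genes at 0 reads on 1 side, and the line is the running median of 15 genes. The line lies above the median of all windows (−0.34) on both sides of FGFR1, while it stays close to that median beside PDGFRA.

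SMARCA2 had 0 reads in each H1703 library, against a lowest of 28.9, a median of 49.4 and a highest of 127 CPM in the 9 others. It was therefore at least 481-fold lower in H1703 (edgeR adjusted p = 0.00139), with no overlap in any state. SMARCA4, the alternative ATPase, had 22.1, 18.3 and 32.2 CPM in H1703, against 7.79 to 14.5 CPM in H1299, 113 to 119 CPM in CHAGO and 73.7 to 79.7 CPM in CALU. H1703 thus lay above H1299 and below the other lines, and SMARCA4 was not called (log2 fold change −1.50 ± 0.91 SE, edgeR adjusted p = 0.324). Of 25 tested subunits of the complexes, SMARCA2 was the 1 called lower and SMARCE1 the 1 called higher, 8% of the list against 4.86% of all tested genes. SMARCE1 had 313, 255 and 237 CPM in H1703, against 71.9 to 172 CPM in the others (log2 fold change 1.25 ± 0.30 SE, edgeR adjusted p = 0.0392). The median of the list was 0.16, against −0.33 over all tested genes. In limma with the correlation within lines estimated, adjusted p was 0.409 for SMARCA2 and 0.679 for SMARCE1.

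Within the Hedgehog pathway, 1 of 21 tested members was called higher and 1 lower, 9.52% of the list against 4.86% of all tested genes, and the median log2 fold change was 0.06. GLI1, an activator and a target of the pathway, had 3.62, 6.13 and 1.46 CPM in H1703, against 0, 0.997 and 0 in H1299, 0, 0.795 and 0 in CHAGO and 0, 1.58 and 0 in CALU. H1703 was the highest line within each state, though its knockdown TICs lay below CALU TICs (fitted log2 fold change 8.60 ± 1.53 SE, edgeR adjusted p = 0.0135). That fitted value rests on 0 reads in 6 of the 9 other libraries: the mean was 3.74 CPM in H1703 and 0.375 CPM in the others, a ratio of 9.98. Over 35 alternative settings GLI1's log2 fold change ran from 2.08 to 10.65, and the call was lost in 15 of them. GLI3, which is often a repressor of the pathway, had 0 reads in H1703, against a lowest of 10.3, a median of 30.4 and a highest of 65.0 CPM in the others, at least 289-fold lower (edgeR adjusted p = 0.00114). With the correlation within lines estimated, limma's adjusted p was 0.985 for GLI1 and 0.261 for GLI3. HHAT, the acyltransferase that modifies Hedgehog ligands, had 1.01, 2.82 and 1.43 CPM in H1703, against 1.56 to 70.7 CPM in the others. The groups overlapped, and HHAT was not called (log2 fold change −2.96 ± 1.19 SE, edgeR adjusted p = 0.174).

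Of 34 tested genes of the epithelial list, 3 were called lower and 0 higher in H1703 by edgeR, 8.82% of the list against 4.86% of all tested genes. In it 32 had a negative log2 fold change, against 8984 of all 14882 tested genes, and the median was −5.92 with bounds. DESeq2 called 15 members lower and limma voom 0, and in the higher direction edgeR gave 0 at an unadjusted p under 0.05 and DESeq2 and limma voom called 0. With the correlation within lines estimated, limma's adjusted p was 0.972 for KRT18, 0.872 for KRT8 and 0.985 for CLDN1. KRT18, a keratin of simple epithelia, had 1.41, 0.761 and 0.193 CPM in H1703, against a lowest of 10.5, a median of 21.8 and a highest of 108 CPM in the others (log2 fold change −5.97 ± 1.20 SE, edgeR adjusted p = 0.0216). KRT8, its partner, had 1, 0 and 0 reads in H1703, against 3.0 to 106 CPM in the others (edgeR adjusted p = 0.0194). CLDN1, a tight junction protein, had 14.0, 5.15 and 0.424 CPM in H1703, against 20.1 to 337 CPM in the others (log2 fold change −4.81 ± 1.22 SE, edgeR adjusted p = 0.0496). No H1703 value of these 3 genes reached the lowest of the other libraries. CDH1, which encodes E-cadherin, had 0 reads in H1703 and in H1299, against 826 to 1105 CPM in CHAGO and 0 to 4.36 CPM in CALU, and was not called (edgeR adjusted p = 0.241). VIM, a mesenchymal filament protein, had 700, 789 and 617 CPM in H1703, against 1133 to 1477 CPM in H1299, 0 to 1.98 CPM in CHAGO and 1173 to 3469 CPM in CALU. H1703 lay between CHAGO and the other lines, with no call (edgeR adjusted p = 0.885).

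Of 34 tested genes of the mesenchymal list, 1 was called higher, COL5A2, and 0 lower by edgeR, 2.94% of the list against 4.86% of all tested genes. There were 28 members with a negative log2 fold change, the median was −4.52 with bounds, and 12 had 0 reads in every H1703 library. Of all 14882 tested genes 8984 were negative and 1362 had 0 reads in every H1703 library. At an unadjusted p under 0.05 edgeR gave 1 higher and 8 lower members. DESeq2 called 1 higher and 12 lower, and limma voom 2 higher and 0 lower. The signs of the epithelial and mesenchymal lists were thus mostly negative in both.

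The title of the series names squamous cell carcinoma, and of 7 squamous markers KRT5, KRT6A, KRT14, DSG3 and PKP1 had 0 reads in every H1703 library, and the summed level of the 7 was 0 to 3.58 CPM, against 2.80 to 125 CPM in the others, so the ranges overlapped. In the longer list of squamous lineage genes edgeR called 0 of 20 tested members, although 18 had a negative log2 fold change, the median was −4.07 with bounds and 11 had 0 reads in every H1703 library. Over all 14882 tested genes 8984 were negative and 1362 had 0 reads in every H1703 library. At an unadjusted p under 0.05 edgeR gave 1 higher and 3 lower, DESeq2 called 1 higher and 3 lower, and limma voom 0. KRT15, a basal keratin, had 2.60, 14.8 and 12.2 CPM in H1703, against 0.234 to 5.66 CPM in the others, without a call (edgeR adjusted p = 0.122). TP63, the squamous master regulator, had 0, 5 and 0 reads in H1703, against 0 to 0.132 CPM in H1299, 4.25 to 43.9 CPM in CHAGO and 2.73 to 45.1 CPM in CALU, and was not called (edgeR adjusted p = 0.158). SOX2, often amplified in squamous tumors, had 0, 3.36 and 1.04 CPM in H1703, against 0 to 38.7 CPM in the others, also without a call (edgeR adjusted p = 0.58). NKX2-1, a lung adenocarcinoma marker, had 3, 2 and 0 reads in H1703, against 0 to 26.7 CPM in the others (edgeR adjusted p = 0.344). The 6 epithelial markers summed to 0.193 to 5.33 CPM in H1703, against 25.6 to 2166 CPM in the others, with CDH1 and EPCAM at 0.

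Markers of other cell types were mostly at or near 0 in the H1703 libraries, and their part in the differences was not tested. All 6 endothelial markers had 0 reads there, against a summed 0 to 45.5 CPM in the others. Of 8 leukocyte markers 7 had 0 reads in H1703, PTPRC among them, and their summed 336 to 808 CPM came from CD68, against 1.20 to 533 CPM in the others. Fibroblast markers summed to 25.8 to 34.3 CPM in H1703, with COL1A2, DCN, LUM and PDGFRB at 0, against 0 to 1563 CPM in the others. Lung airway markers summed to 0.224 to 0.506 CPM in H1703, against 0.026 to 53.5 CPM in the others, and neuroendocrine markers to 0.543 to 6.49 CPM, against 0 to 4.99 CPM. In bulk RNA, fewer cells of a type and less RNA per cell cannot be told apart.

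Most of the other large rises were in genes with few reads in the other lines. EMX2, a homeobox gene of brain and urogenital development, had 10.2, 47.2 and 48.9 CPM in H1703, against 0 reads in all 9 others, at least 589.6-fold higher (edgeR adjusted p = 0.0353); it passed the filter through H1703 alone. SIX3, a homeobox gene of the forebrain and eye, had 32.7, 29.3 and 33.1 CPM in H1703, against 0 to 0.211 CPM in the others (log2 fold change 11.60 ± 1.45 SE, edgeR adjusted p = 0.0036). MYPN, a muscle sarcomere protein, had 585, 1055 and 1405 CPM in H1703, against a median of 2.62 and a highest of 42.4 CPM in the others (7.72 ± 1.50 SE, edgeR adjusted p = 0.0195). The H1703 values of these 3 genes were above every other library. COL5A2, a chain of type V collagen, had 155, 195 and 82.9 CPM in H1703, against 0 to 1.90 CPM in the others (8.62 ± 1.32 SE, edgeR adjusted p = 0.00803). DLGAP1, a scaffold protein of synapses, had 14.6, 51.6 and 30.1 CPM in H1703, against 0 to 0.169 CPM in the others (10.95 ± 1.22 SE, edgeR adjusted p = 0.00206). LRFN1, a synaptic adhesion protein, varied more within H1703, with 0.796, 2.73 and 84.5 CPM, against 0 to 4.01 CPM in the others, so its H1703 parental cells and TICs lay below H1299 knockdown TICs.

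The remaining genes among the 15 largest rises were IQCA1, GALNT14, BTNL9, EID3, OLFM2, NR2F1, PCDH10 and CDK5R2. Their log2 fold changes ran downward to 4.88 for CDK5R2, the gene of an activator of the kinase CDK5, which had 3.73, 62.3 and 18.4 CPM in H1703, against 0 to 2.83 CPM in the others. NR2F1, an orphan nuclear receptor of the COUP family, had 89.7, 72.8 and 45.6 CPM in H1703, against 0 to 7.22 CPM in the others (5.43 ± 1.35 SE, edgeR adjusted p = 0.0477). PCDH10, a protocadherin, had 188, 180 and 140 CPM in H1703, against 0 to 26.7 CPM in the others (5.41 ± 1.24 SE, edgeR adjusted p = 0.0356). IQCA1, GALNT14, NR2F1 and PCDH10 did not pass against each single line. Of all tested genes, 322 passed the filter on low counts through H1703 alone, and 27 of these were called higher, so 274 higher calls did not depend on H1703 to be tested.

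The largest falls were losses of every read in H1703. LAMB3, a laminin chain of epithelial basement membranes, had 0 reads in H1703, against a lowest of 0.958, a median of 57.9 and a highest of 307 CPM in the others, at least 923-fold lower (edgeR adjusted p = 0.0195). It was read in all 9 other libraries. MAN1A1, a mannosidase that trims N-linked glycans in the Golgi, had 0 reads in H1703, against a lowest of 48.5, a median of 95.2 and a highest of 222 CPM, at least 977-fold lower (edgeR adjusted p = 0.000313). NNT, which makes NADPH at the inner mitochondrial membrane, had 0 reads in H1703, against a lowest of 27.6, a median of 74.6 and a highest of 188 CPM, at least 803-fold lower (edgeR adjusted p = 0.00333). ME1, the cytosolic malic enzyme and another source of NADPH, had 0 reads in H1703, against 22.7 to 297 CPM, at least 1138-fold lower (edgeR adjusted p = 0.00804). For these 3 genes the lowest of the other libraries was far above the limit of 0.109 to 0.134 CPM that 0 reads allow in a H1703 library. By limma with the estimated correlation within lines, adjusted p was 0.147 for MAN1A1, 0.525 for NNT, 0.551 for ME1 and 0.985 for LAMB3.

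Others of the 15 largest falls were GPRC5A, STC2, PDE4D, KIAA1217, F11R, DPYSL3, FAM46A, TNC and SEMA6D, all at 0 reads in H1703, and TFPI2, which had 1 read there. Their bounds ran from at least 538-fold lower for SEMA6D, a guidance molecule, to at least 1485-fold lower for GPRC5A, an orphan receptor induced by retinoic acid. STC2, a secreted glycoprotein, was at 37.7 to 491 CPM in the others, and F11R, a junctional adhesion molecule, at 10.3 to 194 CPM. TFPI2, a secreted protease inhibitor, had 15.6 to 10005 CPM in the others, the highest in CALU knockdown TICs. For the genes of this paragraph, limma's adjusted p with the correlation within lines estimated ran from 0.613 for STC2 to 0.985 for GPRC5A.

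A stricter count asked for 0 reads in the 3 H1703 libraries and at least 5 CPM in each of the 9 others. It found 26 genes in H1703, against 4 when the same was asked of H1299, 17 of CHAGO and 15 of CALU. The counts were not matched for depth, and 0 reads is a stricter demand in the deeper CHAGO and CALU libraries. All 26 were called lower, but the selection itself asked for a large fall. Besides those named they included AASS, an enzyme of lysine breakdown, SATB1, a chromatin organiser, IKZF2, a zinc finger transcription factor, ADM, a vasoactive peptide, and GLRX, a glutaredoxin. The smallest bound was that of MTUS1, at least 129-fold lower. A read count that is 0 in 1 library and at least 5 CPM in the other 2 of the same line was met by 13 genes in H1703, against 28 in H1299, 9 in CHAGO and 21 in CALU.

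The promoters of PDGFRA and of 3 genes with 0 reads in H1703 are shown to let their CpG content be seen, with each CpG in capitals. They run 5′ to 3′ on the strand of the gene from 250 bases before to 50 after its start, from RefSeq on GRCh38.p14, and the read counts play no part in them. They lie at chr4:54229043-54229342 (plus strand), chr9:2015097-2015396 (plus strand), chr6:119349712-119350011 (minus strand) and chr5:43602425-43602724 (plus strand).
PDGFRA: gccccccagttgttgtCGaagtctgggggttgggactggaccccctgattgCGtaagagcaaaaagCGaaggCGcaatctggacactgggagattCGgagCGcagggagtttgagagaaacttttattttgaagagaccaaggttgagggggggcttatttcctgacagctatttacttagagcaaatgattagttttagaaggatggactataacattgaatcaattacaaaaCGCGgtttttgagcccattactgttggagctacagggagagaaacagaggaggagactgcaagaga
SMARCA2: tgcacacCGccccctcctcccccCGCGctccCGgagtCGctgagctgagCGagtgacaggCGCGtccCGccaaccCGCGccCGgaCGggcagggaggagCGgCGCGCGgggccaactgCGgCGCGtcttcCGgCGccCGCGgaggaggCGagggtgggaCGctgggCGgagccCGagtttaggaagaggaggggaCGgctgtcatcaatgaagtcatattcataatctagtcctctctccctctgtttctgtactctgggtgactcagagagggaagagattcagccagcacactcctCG
MAN1A1: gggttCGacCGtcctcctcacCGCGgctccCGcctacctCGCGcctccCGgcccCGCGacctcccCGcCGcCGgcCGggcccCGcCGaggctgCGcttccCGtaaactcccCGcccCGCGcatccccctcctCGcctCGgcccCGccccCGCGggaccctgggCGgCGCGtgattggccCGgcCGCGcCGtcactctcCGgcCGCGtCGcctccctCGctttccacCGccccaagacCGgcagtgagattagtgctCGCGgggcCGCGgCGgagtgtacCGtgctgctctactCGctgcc
NNT: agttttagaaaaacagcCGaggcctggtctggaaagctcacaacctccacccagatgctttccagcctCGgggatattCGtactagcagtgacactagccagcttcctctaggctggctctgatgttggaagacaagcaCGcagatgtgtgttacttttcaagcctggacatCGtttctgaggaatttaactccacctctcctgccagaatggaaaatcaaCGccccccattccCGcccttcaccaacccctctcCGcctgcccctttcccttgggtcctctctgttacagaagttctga
PDGFRA and NNT held 8 CpGs each, SMARCA2 30 and MAN1A1 47, against a median of 26 over the 11267 tested genes with an entry. The ratio of observed to expected CpGs was 0.53 for PDGFRA, 0.90 for SMARCA2, 1.12 for MAN1A1 and 0.41 for NNT, so genes without reads in H1703 had both CpG-rich and CpG-poor promoters. A comparison of promoter composition between gene groups was void, because entries existed for 75.7% of tested genes. DNA methylation was not measured in these files.

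Of 23 tested feedback targets of the MAPK pathway 5 were called lower and 0 higher by edgeR, which is 21.7% of the list against 4.86% of all tested genes. In the list 21 had a negative log2 fold change, against 8984 of all 14882 tested genes. DESeq2 called 12 lower and limma voom 0, and with the correlation within lines estimated limma's adjusted p for the 5 genes ran from 0.872 to 0.985. No member was higher at an unadjusted p under 0.05 or by DESeq2 or limma voom, and the median was −1.53. DUSP6, a phosphatase of ERK, had 0.470, 6.36 and 1.19 CPM in H1703, against a lowest of 18.2, a median of 111 and a highest of 761 CPM in the others (log2 fold change −6.62 ± 1.25 SE, edgeR adjusted p = 0.0176). SPRY2, an inhibitor of receptor signalling, had 1.23, 6.36 and 6.05 CPM in H1703, against 4.36 to 77.9 CPM in the others (−3.32 ± 0.71 SE, edgeR adjusted p = 0.0276). SPRY1, its relative, had 2.21, 2.15 and 1.93 CPM in H1703, against 8.36 to 136 CPM in the others (−3.78 ± 0.89 SE, edgeR adjusted p = 0.0384). DUSP6 and SPRY1 did not overlap between the groups, while SPRY2 did, through CHAGO parental cells. ETV1, an ETS transcription factor, had 0.579, 11.4 and 2.31 CPM in H1703, against 69.3 to 800 CPM in the others (−6.18 ± 0.96 SE, edgeR adjusted p = 0.00803). EMP1, a membrane protein, had 5, 3 and 0 reads in H1703, against 26.1 to 421 CPM in the others (edgeR adjusted p = 0.00411).

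NRF2 is the regulator of the antioxidant response. Of 31 tested members of its target list, which also holds xenobiotic enzymes, 3 were called higher and 3 lower (19.4% against 4.86% of all tested genes), and the median was −0.42. HMOX1, which breaks down heme, had 211, 393 and 467 CPM in H1703, against a lowest of 1.82, a median of 10.7 and a highest of 53.2 CPM in the others (log2 fold change 4.25 ± 0.83 SE, edgeR adjusted p = 0.0197). TXNRD1, thioredoxin reductase, had 1466, 1620 and 1571 CPM in H1703, against 146 to 852 CPM in the others (1.94 ± 0.40 SE, edgeR adjusted p = 0.0223). Both genes were above every other library in all H1703 states, and with the correlation within lines estimated limma's adjusted p was 0.0563 for HMOX1 and 0.512 for TXNRD1. The lower members were ME1, described above, CYP1B1 and ABCC3. CYP1B1, an oxidase of xenobiotics and steroids, had 2.21, 0.985 and 0.693 CPM in H1703, against 29.2 to 957 CPM in the others (−8.13 ± 1.47 SE, edgeR adjusted p = 0.0147). By limma with the estimated correlation within lines, adjusted p was 0.551 for ME1 and 0.947 for CYP1B1. ABCC3, an efflux pump picked after its values were seen, had 0 reads in H1703, against 0.104 to 39.3 CPM in the others (edgeR adjusted p = 0.0382). The lowest of these values is under the 0.109 to 0.134 CPM that 0 reads allow in a H1703 library. H1703 thus cannot be placed below that library for ABCC3.

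Of 29 tested integrins and laminins 3 were called lower, ITGB8 and LAMB3 among them, and 0 higher by edgeR, 10.3% of the list against 4.86% of all tested genes. The median was −3.84 with bounds, and 26 were negative, against 8984 of all 14882 tested genes. No member was higher at an unadjusted p under 0.05 in edgeR or by DESeq2 or limma voom, while DESeq2 called 13 lower and limma voom 0. Limma's adjusted p with an estimated correlation was 0.985 for both ITGB8 and LAMB3. ITGB8, an integrin that activates TGF-beta, had 0, 1 and 0 reads in H1703, against 0.986 to 1273 CPM in the others (edgeR adjusted p = 0.021). Among 28 cadherins and protocadherins, PCDH10 was called higher and PCDH7 and PCDH9 lower, 10.7% of the list against 4.86% of all tested genes. PCDH7 and PCDH9 were both at 0 reads in H1703. In limma with an estimated correlation, adjusted p was 0.261 for PCDH10, 0.872 for PCDH7 and 0.985 for PCDH9. PCDH7 had 3.04 to 159 CPM in the others (at least 524-fold lower in H1703, edgeR adjusted p = 0.0101), and PCDH9 had 0.226 to 97.8 CPM (at least 262-fold lower, edgeR adjusted p = 0.049). Of 27 collagens, COL5A2 was called higher and 0 lower by edgeR, 3.70% of the list against 4.86% of all tested genes. Of the collagens 23 had a negative log2 fold change, and the median was −3.91 with bounds. At an unadjusted p under 0.05 edgeR gave 1 higher and 3 lower collagens. DESeq2 called 1 higher and 8 lower, and limma voom 1 higher and 0 lower. Of 14 keratins 3 were called lower, KRT8, KRT18 and KRT80, and 0 higher, 21.4% of the list against 4.86% of all tested genes. KRT8 and KRT18 were already counted in the epithelial list. At an unadjusted p under 0.05 edgeR gave 1 higher and 6 lower keratins. DESeq2 called 1 higher and 6 lower, and limma voom 0 higher and 0 lower. KRT80 had an adjusted p of 0.938 by limma with the estimated correlation.

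Among 110 tested developmental transcription factors SIX3 was called higher and PAX6, FOXP2, ETV1, KLF4 and SATB1 lower, 5.45% of the list against 4.86% of all tested genes. PAX6, a regulator of eye and brain development, had 0.398, 0 and 0.077 CPM in H1703, against 3.64 to 48.3 CPM in the others (log2 fold change −7.26 ± 1.19 SE, edgeR adjusted p = 0.0093). SATB1 had 0 reads in H1703, against 7.11 to 93.7 CPM in the others, at least 481-fold lower (edgeR adjusted p = 0.00579). KLF4, picked after its values were seen, had 0.940, 0.493 and 0.347 CPM in H1703, against 3.54 to 43.7 CPM in the others (−5.03 ± 1.15 SE, edgeR adjusted p = 0.0354). None of these 3 overlapped between the groups, and with the correlation within lines estimated limma's adjusted p was 0.823 for PAX6 and 0.621 for SATB1. Of 32 HOX genes, HOXB5 was called lower (3.12%, against 4.86% of all tested genes), with 0 reads in H1703, against 0.705 to 29.9 CPM in the others (at least 96.9-fold lower, edgeR adjusted p = 0.0211). Of 23 imprinted genes, MEST and TFPI2 were called lower, 8.70% of the list against 4.86% of all tested genes. MEST had 0 reads in H1703, against 0.467 to 42.4 CPM in the others (at least 139-fold lower, edgeR adjusted p = 0.0405). With the correlation within lines estimated, limma's adjusted p was 0.801 for HOXB5 and 0.985 for MEST and for TFPI2.

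Of 35 tested interferon-stimulated genes 3 were called lower and 0 higher by edgeR, 8.57% of the list against 4.86% of all tested genes. The median was −3.03 with bounds, and 33 were negative, against 8984 of all 14882 tested genes. DESeq2 called 15 lower and limma voom 0, and with the correlation within lines estimated limma's adjusted p was 0.985 for MX1, SAMD9L and SAMD9. In the higher direction edgeR gave 0 at an unadjusted p under 0.05, and DESeq2 and limma voom called 0. MX1, an antiviral GTPase, had 0 reads in H1703, against 0.026 to 48.3 CPM in the others (at least 141-fold lower, edgeR adjusted p = 0.027). SAMD9L, an antiviral protein, had 0 reads in H1703, against 3.27 to 133 CPM in the others (at least 388-fold lower, edgeR adjusted p = 0.0216). SAMD9, its paralog, had 0, 4.30 and 0.193 CPM in H1703, against 47.5 to 680 CPM in the others (log2 fold change −8.38 ± 1.93 SE, edgeR adjusted p = 0.0364). H1703 was below all other libraries for SAMD9L and SAMD9. MX1 had just 1 read in H1299 parental cells, which is under the 0.109 to 0.134 CPM that 0 reads allow in a H1703 library. H1703 thus cannot be placed below that library for MX1.

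In the RB and p53 pathway 2 of 32 members were called higher and 0 lower by edgeR, 6.25% of the list against 4.86% of all tested genes. At an unadjusted p under 0.05 edgeR gave 5 higher and 7 lower members. DESeq2 called 3 higher and 5 lower, and limma voom 2 higher and 0 lower. CDK2, a kinase of the cell cycle, had 202, 214 and 181 CPM in H1703, against 40.6 to 143 CPM in the others (log2 fold change 1.32 ± 0.32 SE, edgeR adjusted p = 0.0409). BAX, a cell death protein and p53 target, had 24.5, 20.1 and 21.4 CPM in H1703, against 1.38 to 5.67 CPM in the others (2.86 ± 0.49 SE, edgeR adjusted p = 0.0111). Both lay above every other library, and with the correlation within lines estimated limma's adjusted p was 0.910 for CDK2 and 0.350 for BAX. CDKN2A, a cell cycle inhibitor gene often deleted in lung cancer, had 7.49, 8.33 and 6.43 CPM in H1703, against 3.83 to 17 CPM in the others, a full overlap (log2 fold change 0.17 ± 0.52 SE, edgeR adjusted p = 0.874). CDKN2B, the inhibitor gene beside it, had 4.63, 47.6 and 11.5 CPM in H1703, against 22.1 to 582 CPM in the others (−3.28 ± 1.10 SE, edgeR adjusted p = 0.115). MTAP, a neighbour that salvages methionine, had 50.9, 109 and 78.8 CPM in H1703, against 30.5 to 51.1 CPM in the others (0.89 ± 0.29 SE, edgeR adjusted p = 0.105). CDKN2B and MTAP were not called. In the list of genes around CDKN2A, 1 of 15 tested was called, DMRTA1, 6.67% of the list against 4.86% of all tested genes. DMRTA1 had 0 reads in H1703, against 0.195 to 11.6 CPM in the others (at least 40.3-fold lower, edgeR adjusted p = 0.0218). Its adjusted p by limma with the estimated correlation was 0.727.

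**Figure D4:**
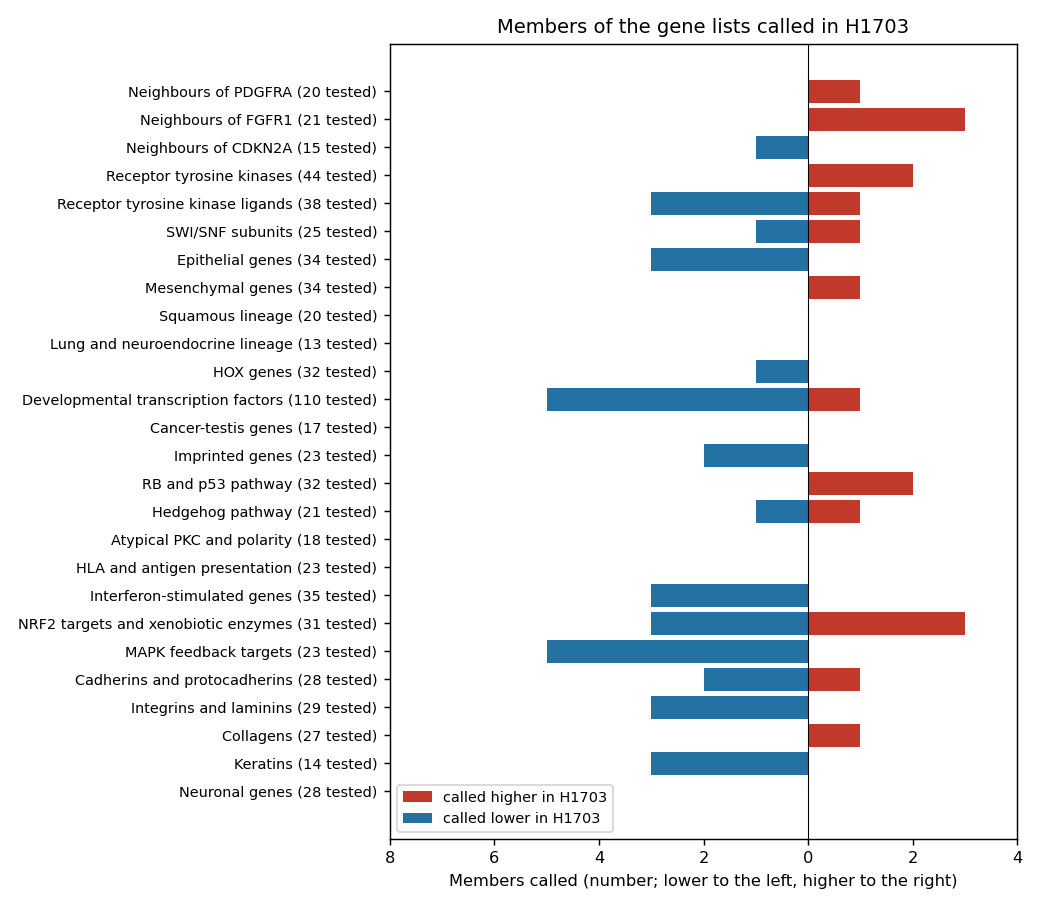
Number of members of each gene list called higher (red, to the right) and lower (blue, to the left) in H1703, with the number tested in brackets. Lower calls stand alone in the lists of MAPK feedback targets (5 of 23), epithelial genes (3 of 34) and interferon-stimulated genes (3 of 35), while the NRF2 list has 3 of each.

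Calls were spread unevenly over the chromosomes. On chromosome 17, 56 of 842 tested genes were called higher (6.65%, against 2.02% over all tested genes), and the shares were 4.54% on chromosome 10 and 3.82% on chromosome X. Chromosome 5 held the highest share of lower calls, 53 of 683 genes (7.76%, against 2.84% over all), followed by 6.25% on chromosome 21 and 5.95% on chromosome 4. The median log2 fold change was 0.41 on chromosome 17 and −0.64 on chromosome 5, beside −0.33 over all tested genes.

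**Figure D5:**
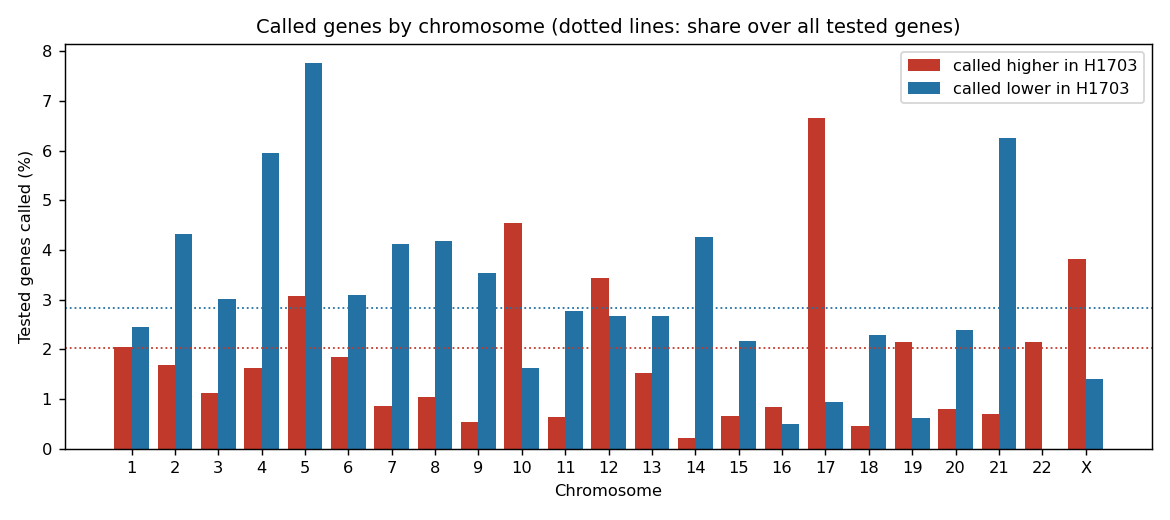
Share of tested genes (%, y axis) called higher (red) and lower (blue) in H1703 on each chromosome (x axis), with dotted lines at the shares over all tested genes. Chromosome 17 stands out in red at 6.65% and chromosome 5 in blue at 7.76%.

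Runs of neighbouring genes differed together at finer scale. The highest window of 15 genes had a median log2 fold change of 2.05, from NUCB1 to TEAD2 on chromosome 19, with 13 of 15 positive and BAX the 1 gene called. The next, from SAR1A to SPOCK2 on chromosome 10, had a median of 1.90 and held SGPL1, which breaks down sphingosine phosphate. SGPL1 had 389, 384 and 288 CPM in H1703, against 99.0 to 150 CPM in the others (log2 fold change 1.54 ± 0.20 SE, edgeR adjusted p = 0.00411). The third, from DNAL4 to MGAT3 on chromosome 22, had a median of 1.65. In it MGAT3, an N-glycan branching enzyme, was called higher at 1.01, 2.96 and 1.27 CPM in H1703, against 0 to 0.015 CPM in the others (edgeR adjusted p = 0.00597). MGAT3 passed the filter on low counts through H1703 alone, so a test could find it only higher. The lowest window, from PCDHB2 to PCDHB14 on chromosome 5, had a median of −6.36 and 4 genes called lower, PCDHB9, PCDHB11, PCDHB13 and PCDHB14. Members of this protocadherin cluster are near copies of each other, so reads counted for 1 of them are uncertain. Next came SLC4A4 to AREG on chromosome 4, a stretch with the CXCL chemokines and the EGF receptor ligands EREG and AREG, with a median of −6.16 and 13 of 15 negative. AREG had 0 reads in H1703, against 0 to 84.1 CPM in the others, and was not called (edgeR adjusted p = 0.16). The window from PSMD14 to SCN9A on chromosome 2 had a median of −5.35, with 15 of 15 negative and GALNT3, an O-glycosylation enzyme, called lower (edgeR adjusted p = 0.0487).

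Whether the H1703 difference varied with state was tested by the interaction of H1703 with state. edgeR called 0 genes (0% of 14882), with 182 at an unadjusted p under 0.05 and a smallest adjusted p of 0.708. A likelihood ratio test in DESeq2 called 13, with 383 at an unadjusted p under 0.05, and limma voom called 0, with 39. With 1 library per line and state, the fit had 6 residual degrees of freedom, and it held no term for each line, so differences among the other lines stayed in its spread. With such terms added, a fit chosen after seeing the data with 4 residual degrees of freedom, edgeR called 0, with 730 at an unadjusted p under 0.05 and a smallest adjusted p of 0.139. For the genes set apart, the median range of the difference over the 3 states was 0.97 on the log2 scale, beside a median absolute difference of 2.51, and the range was under 1 for 375 of 722. These genes were chosen for lying beyond the other lines in every state, which favours a large difference of 1 sign. Their range is therefore no support for a difference that is constant over states. The smallest p was that of HOXB3, a homeobox gene, with 0, 0 and 17.8 CPM in H1703, against 2.50 to 12.8 CPM in the others (adjusted p = 0.708 by edgeR). SOX9, a transcription factor of progenitor cells, had 0, 14.95 and 0 CPM in H1703, against 66.2 to 683 CPM in the others (adjusted p = 0.785 by edgeR). PTPRK, a receptor phosphatase, had 5.10, 2.69 and 0 CPM in H1703, against 77.4 to 307 CPM in the others, and was set apart in all 3 states.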

How the data were processed

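Per the labels' protocols, RNA came from a Qiagen RNeasy extraction and the kit maker NuGEN is named for the libraries. The submitters' processing notes name CASAVA 1.4, TopHat 1.4, HTSeq 0.5.3p3 and hg19 without their roles. Tests ran on the deposited raw counts, which are whole numbers for each gene in each library. The authors' mode-normalized values, a score rounded to whole numbers in another deposited file, served for 1 alternative. Whether counting used strand is not given in the sources used here, so overlapping genes cannot be told apart.

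Libraries were grouped by line and state from the labels, and 4044 of 22506 listed genes had no read. After filterByExpr by line, 14882 genes entered edgeR 4.0.16 (R 4.3.3) with TMM factors, state and H1703 as terms, the quasi-likelihood F test (two-sided, 8 residual degrees of freedom) and Benjamini-Hochberg adjustment. limma 3.58.1 and DESeq2 1.42.0 gave alternatives, and the fits were tested on simulated data with known changes. SE was calculated back from the test, as the absolute fitted log2 fold change divided by the square root of its F statistic. It was not estimated by the fit itself. A group at 0 reads was set to a floor of 3 reads per library for bounds, which cover counting error only. Bounds compare that floor with the mean CPM of the other group, not with its lowest library. Gene lists were described by counts and medians without a set test, and 925 of 930 list symbols were found as written, 4 by synonym. Gene order, not position, was taken from RefSeq on GRCh38, where 14299 tested genes were placed. Spreadsheet dates stand in place of 26 symbols, 20 of them tested and 1 called, and none is named. After removing state means, libraries of 1 line correlated at 0.578 to 0.828. Libraries of the same state and different lines then correlated at −0.491 to −0.149. Removing the mean of a state forces these values below 0 on average. They therefore cannot show whether libraries of different lines were paired.

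Named genes were a set of lung cancer, PDGF, Hedgehog and SWI/SNF genes always given, the 15 largest rises and 15 largest falls in fitted log2 fold change among genes set apart with an average log2 CPM of at least 2, up to 5 members of smallest p per list, the genes of the 3 highest and lowest windows, and the 6 genes of smallest p for state dependence. Genes of the Y chromosome were left out, and some other genes that the rule takes are not reported here. The members, lists and tests were chosen with earlier results of these data known.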

Additional observations from a re-analysis of the deposited data

How the results depend on the processing

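Against 301 genes called higher and 422 lower in H1703, an adjusted p of 0.01 left 64 higher and 81 lower, and a log2 fold change of at least 2 left 120 higher and 317 lower. Asking for a gap of 2-fold to the nearest line in each state left 133 higher of the 300 set apart. Other tests gave 1799 higher and 1740 lower with a term for each line and the mean of the 3 other lines, 810 and 2015 with DESeq2, 414 and 104 with limma voom, and 13 and 0 with limma voom and the correlation within lines estimated (896 at an unadjusted p under 0.05). The authors' mode-normalized values gave 689 and 542. With the fit lacking state as a replicate block, 393 were higher and 608 lower. Thinning the libraries to the smallest total gave 349 and 438.

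Leaving out CALU gave 190 higher and 264 lower. Leaving out parental cells of all lines gave 22 and 58, leaving out TICs 6 and 11, and leaving out knockdown TICs 5 and 18. Within 1 state, with 1 H1703 library assumed to vary like the other lines, edgeR called 0 higher and 0 lower genes, with 674 at an unadjusted p under 0.05 in parental cells, 731 in TICs and 753 in knockdown TICs, and no other tool was run there. With each library left out in turn, higher calls ran from 19 to 277 and lower calls from 47 to 398. The lowest counts came without a H1703 library: 56 higher and 98 lower without the parental one, 27 and 74 without the TIC one, and 19 and 47 without the knockdown TIC one. State dependence gave 0 calls in edgeR with any single library left out, and 13 in DESeq2 with all libraries. With a term for each line added, chosen after seeing the data, edgeR called 0.

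VIM changed sign, to a log2 fold change of 2.74 (adjusted p = 0.0325 by edgeR), with a term for each line. Over 35 alternative settings 31 of 275 named genes took the opposite sign in at least 1, VIM with limma voom and with mode-normalized values too, and 0 of the 31 were called by edgeR in the fit of all libraries. The causes were not tested. Depth limits the genes at 0 reads to bounds, and 1 library per line and state limits every statement to these lines.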
